A study of Mus musculus with 159 samples.

Results

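Mice given the choice between water and 20% ethanol can drink much the same total amount when the bottle is always present as when it is offered on alternate days, and the comparison described here asks in which liver genes the response to ethanol differed between these schedules. It takes the 40 liver arrays of the Chronic and CI studies out of 159 arrays in the series. In Chronic, ethanol and water bottles stood side by side at all times, and in CI (chronic intermittent) the ethanol bottle was present every other day. Each study had arrays of 10 ethanol-drinking mice and of its own 10 mice that received only water, 1 mouse per array. Per the methods, a further drinking mouse of CI was left out of the arrays at random. All were female C57BL/6J mice with a labelled age of 2.5 months, although the methods give a greater age at the start of drinking. CI ran for longer than Chronic so that the total intake was alike. Late in the exposure, however, the authors report a higher daily intake in CI than in Chronic. The access schedule, this late intake, the length of the study and the age at collection therefore cannot be told apart. The livers were collected in the early afternoon, in the light phase, about a day after the last access to ethanol. The methods do not state the order in which water and ethanol mice were taken. The members are the probes with a value in both liver studies, 9114 of the 13983 probes in the table, which named 6651 genes while 548 had no gene symbol. For each probe the change with ethanol in CI was subtracted from the change with ethanol in Chronic. A positive difference therefore means that the ethanol effect was more positive under continuous access, and a negative one that it was more positive under intermittent access.

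The liver oxidizes most of the ethanol a mouse drinks and turns part of the surplus reducing power and acetate into changes of fat, sugar and sterol metabolism. It also runs a circadian clock, in which the activators CLOCK and BMAL1 switch on the Per and Cry repressors through E-box motifs, and factors such as DBP and TEF carry the rhythm to enzymes through D-box motifs. The timing of feeding is a known input to this clock in mouse liver. Newly made secretory and membrane proteins are folded in the endoplasmic reticulum (ER), whose chaperones rise when the folding load exceeds capacity.

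The values are log2 intensities as normalized by the submitters. Array medians lay between 9.15 and 9.17 in Chronic and between 8.63 and 8.64 in CI, so the studies are on different scales, and levels are given side by side but were tested only within a study. Blank cells were left where the submitters removed single outlying values of a probe. They made up 0.596% of the values, with at most 3 per probe, and 1994 of the 9114 probes (21.9%) had at least 1. The 95% interval of the difference extended to either side by a median of 0.14. Within its study every array had an average correlation of 0.984 or more across probes. Bulk liver holds several cell types, and fewer cells of a type and less RNA per cell cannot be told apart in these values. All 12 measured hepatocyte markers and all 13 measured Kupffer cell markers had a difference with an unadjusted p above 0.05. The hepatocyte marker mean lay between 14.3 and 14.5 in every Chronic array and between 14.01 and 14.21 in every CI array. The Kupffer marker mean lay between 9.93 and 10.4 in Chronic and between 9.10 and 9.94 in CI. Their part, and that of the other cell types, in the results below was not tested beyond these values.

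After Benjamini-Hochberg adjustment over all probes, 17 probes had a limma adjusted p under 0.05 for the difference, which is 0.187% of those tested. They comprised 10 positive and 7 negative differences, and they named 14 genes, with Clpx counted by 2 probes and 2 probes lacking a symbol. In 15 of the 17 the change had opposite signs in the 2 studies, against 781 of 899 probes at an unadjusted p under 0.05 and 4313 of all 9114. Choosing probes by the difference itself favours opposite signs. At an unadjusted p under 0.05 there were 899 probes (9.86%), 448 with a positive difference (4.92%) and 451 with a negative one (4.95%). Over all probes the Chronic and CI changes correlated with r = 0.20, a description across genes that are not independent. Of the 17 probes, 7 had a blank cell (41.2%), against 21.9% of all probes. The refit on complete probes given at the end leaves these 7 out, so the part of the blanks in their calls was not tested.

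**Figure D1:**
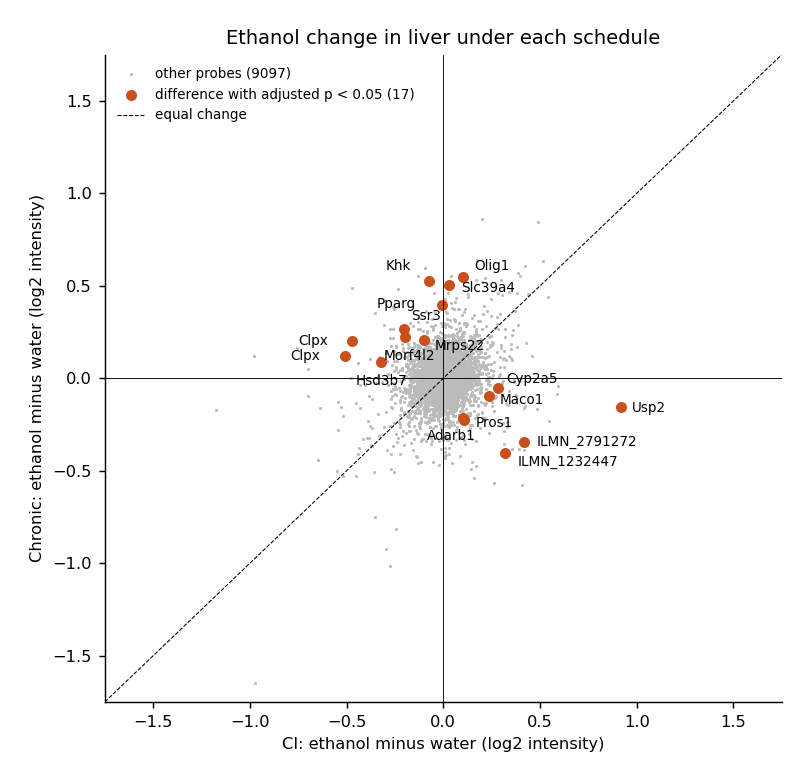
Change with ethanol (ethanol minus water, log2 intensity) in the Chronic study on the vertical axis against CI on the horizontal axis, 1 point per probe, with the 17 probes whose difference had an adjusted p under 0.05 in orange and a dashed line of equal change. Usp2 lies alone on the right at 0.92 in CI and -0.15 in Chronic, while Khk, Slc39a4, Olig1 and Pparg lie high with CI changes near 0.

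The difference of greatest size among the 17 belonged to Usp2, which encodes a deubiquitinating enzyme and is a rhythmic output of the liver clock. Its log2 intensity (lowest, median and highest of 10 arrays) was 8.62, 9.06 and 9.67 in the CI water mice and 9.25, 9.99 and 10.5 in the CI ethanol mice. In Chronic the same figures were 10.9, 11.5 and 11.8 for water and 10.7, 11.3 and 11.8 for ethanol. All 10 CI ethanol mice were above the mean of their water controls, against 4 of 10 in Chronic, although the ranges overlapped in both studies. On the log2 scale Usp2 rose by 0.92 ± 0.15 (SE) in CI (limma adjusted p = 0.0105), whereas the Chronic estimate was -0.15 ± 0.12. The difference was -1.07 with a 95% interval from -1.47 to -0.67 (limma adjusted p = 0.0058).

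Clpx showed the opposite arrangement. It encodes the ATPase subunit of the mitochondrial ClpXP protease, which unfolds matrix proteins and also acts in the control of heme synthesis. With its first probe (ILMN_2613869) the CI water arrays ran from 10.3 over a median of 10.5 to 11.1 and the CI ethanol arrays from 9.81 over 10.1 to 10.4, whereas the Chronic arrays ran from 9.83 over 10.0 to 10.4 with water and from 10.1 over 10.3 to 10.6 with ethanol. Every one of the 10 CI ethanol mice was below its control mean and every one of the 10 Chronic ethanol mice above it. The difference was 0.67 ± 0.13 (SE; limma adjusted p = 0.00673), and the second probe (ILMN_3154849) gave 0.63 ± 0.12 (limma adjusted p = 0.00928) and a fall in CI (change -0.51 ± 0.07). On the second probe the Chronic change was 0.12 ± 0.09, with 5 of 10 ethanol mice above the control mean. The first probe lost its call when all 80 liver arrays entered the fit (limma adjusted p = 0.109). Another mitochondrial gene, Mrps22, a subunit of the mitochondrial ribosome, rose in Chronic by 0.21 ± 0.05 and had a CI change of -0.10 ± 0.04, with a difference of 0.31 ± 0.06 (limma adjusted p = 0.0131, and 0.102 with all 80 liver arrays in the fit).

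Khk, Pparg, Slc39a4 and Olig1 were called genes with the larger change in Chronic. Khk encodes ketohexokinase, the enzyme that phosphorylates fructose on its entry into the liver. Khk ran from 11.9 over 12.2 to 12.6 in 9 Chronic water arrays and from 12.2 over 12.8 to 13.2 in the 10 Chronic ethanol arrays, and in CI from 12.3 over 12.5 to 12.96 with water and 12.2 over 12.5 to 12.7 with ethanol. It rose by 0.52 ± 0.10 in Chronic (limma adjusted p = 0.0102) against -0.07 ± 0.08 in CI, a difference of 0.60 ± 0.13 (limma adjusted p = 0.0204). A further Khk probe (ILMN_2698564) gave 0.29 ± 0.11 with an adjusted p of 0.327 in the same limma fit.

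Pparg, the nuclear receptor that drives fat storage in adipocytes and is raised in fatty mouse liver, and Slc39a4, the zinc importer ZIP4, had Chronic groups that did not overlap. Pparg spanned 8.82 to 9.19 (median 9.03) in Chronic water and 9.22 to 9.72 (median 9.41) in Chronic ethanol mice, and in CI 8.66 to 9.13 (8.92) and 8.78 to 9.14 (8.87). Slc39a4 spanned 10.6 to 11.1 (median 10.9, 9 arrays) and 11.2 to 11.7 (11.4) in Chronic, and 9.94 to 10.4 (10.1) and 9.80 to 10.4 (10.2) in CI. Their Chronic rises were 0.40 ± 0.06 and 0.50 ± 0.07, and their CI changes -0.01 ± 0.06 and 0.03 ± 0.06. The differences of 0.41 ± 0.08 and 0.48 ± 0.10 both had a limma adjusted p of 0.0131. For Pparg it became 0.0513 when the 40 arrays were normalized together, a refit of complete probes only. Slc39a4, which has a blank cell, was not tested in that refit. Olig1 was the third of the 17 with separate Chronic groups, and over all 9114 probes 13 had Chronic groups that did not overlap (0.143%). Olig1 is a transcription factor of the oligodendrocyte lineage, and its probe was dim here, at 8.24 to 8.74 in Chronic water and 8.83 to 9.36 in Chronic ethanol mice. It rose by 0.55 ± 0.07 in Chronic against 0.10 ± 0.04 in CI, so that both changes were positive (difference 0.45 ± 0.08, limma adjusted p = 0.0058).

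Hsd3b7, an enzyme of bile acid synthesis, and Cyp2a5, a cytochrome P450 that hydroxylates coumarin, differed through their change in CI. Hsd3b7 had medians of 13.5 (13.3 to 13.6) in CI water and 13.1 (12.9 to 13.4) in CI ethanol mice, against 13.6 (13.4 to 13.8) and 13.7 (13.4 to 13.9) in Chronic. All 10 CI ethanol mice were below the control mean, with a CI change of -0.32 ± 0.05 (limma adjusted p = 0.0138) and a Chronic change of 0.09 ± 0.06. The difference was 0.41 ± 0.09 (limma adjusted p = 0.0149, and 0.14 with all 80 liver arrays in the fit), and a brighter Hsd3b7 probe gave 0.29 ± 0.09 with a limma adjusted p of 0.185. Cyp2a5 (ILMN_3159131) had medians of 14.61 and 14.95 in CI water and ethanol mice and 15.3 and 15.2 in Chronic. Its changes were 0.28 ± 0.06 in CI (limma adjusted p = 0.0575) and -0.05 ± 0.03 in Chronic. The difference was -0.33 ± 0.07 (limma adjusted p = 0.0152). Its call was lost when the 40 arrays were normalized together (adjusted p = 0.0577) and with all 80 liver arrays in the limma fit (0.0699). This probe is near the top of the scale, and Cyp2a5 shares nearly all of its sequence with Cyp2a4, so which of these genes it reports is uncertain. The other 3 Cyp2a5 probes gave differences of -0.58, -0.23 and -0.22 with unadjusted limma p-values of 0.0123, 0.398 and 0.531. Their CI changes were 0.42, 0.43 and 0.38 and their Chronic changes -0.16, 0.19 and 0.17.

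The remaining called probes lay in secretion, blood clotting, RNA editing and chromatin. Ssr3, a subunit of the translocon-associated complex that helps nascent proteins enter the ER, ran from 12.2 over 12.4 to 12.5 in Chronic water and from 12.5 over 12.7 to 12.8 in Chronic ethanol mice, but from 11.5 over 11.7 to 11.9 and from 11.3 over 11.5 to 11.8 in CI. It rose by 0.27 ± 0.05 in Chronic and had a CI change of -0.21 ± 0.06 (difference 0.47 ± 0.08, limma adjusted p = 0.00443, and 0.0671 with all 80 liver arrays in the fit). Morf4l2, a subunit of histone acetylation complexes, had changes of 0.22 ± 0.06 and -0.20 ± 0.07, with every Chronic ethanol mouse above and every CI ethanol mouse below its control mean (difference 0.42 ± 0.09, limma adjusted p = 0.0318). It was the only one of the 17 to lose its call on leaving out 1 array, which happened for 15 of the 40 arrays, and its adjusted p was 0.0513 with the 40 arrays normalized together and 0.156 with all 80 liver arrays in the limma fit. Adarb1, an adenosine-to-inosine RNA editing enzyme, Pros1, the anticoagulant protein S, and Maco1 had negative differences of -0.32 ± 0.06, -0.33 ± 0.07 and -0.33 ± 0.07, with limma adjusted p-values of 0.013, 0.0131 and 0.0152, the last becoming 0.0554 with all 80 liver arrays in the fit. Adarb1 and Pros1 fell in Chronic (-0.22 ± 0.05 for each) with CI changes of 0.10 ± 0.03 and 0.11 ± 0.05. The probes without a symbol, ILMN_2791272 and ILMN_1232447, had differences of -0.76 ± 0.13 and -0.72 ± 0.13 (limma adjusted p = 0.00443 and 0.0058), and in each the ethanol mice were above their control mean in 10 of 10 CI and 1 of 10 Chronic arrays.

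**Figure D2:**
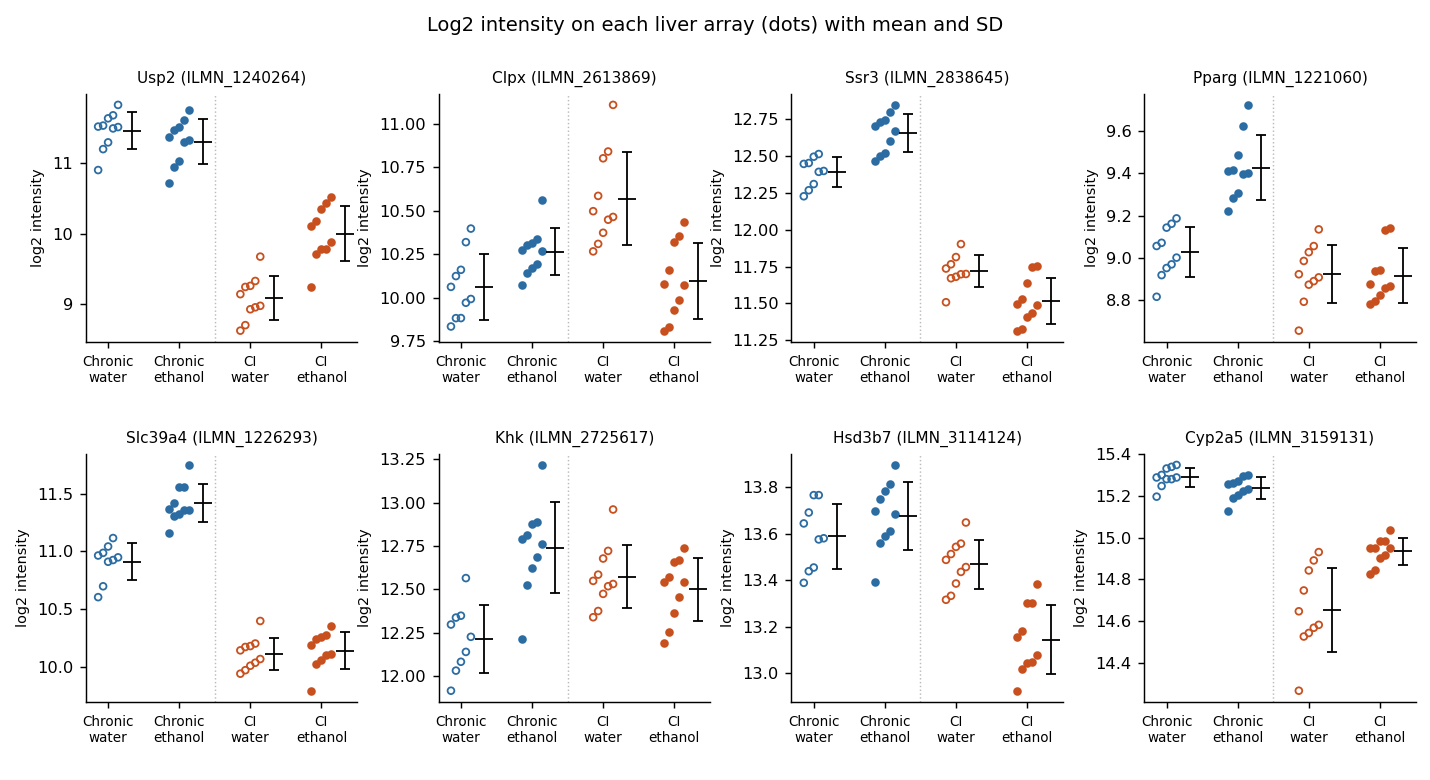
Log2 intensity on every liver array for 8 of the called probes, open circles for water and filled circles for ethanol, Chronic in blue and CI in orange, with the mean and SD beside each group (9 or 10 arrays). The Pparg and Slc39a4 circles separate in Chronic and coincide in CI, while Usp2, Hsd3b7 and Cyp2a5 shift in CI.

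The threshold fell in a dense region. Morf4l2 was just inside at an adjusted p of 0.0318, and just outside stood Plrg1, Pdk2, Acot11 and Coq10b, followed by Flot2, Nudt9, Rarb, Rfc4, Mydgf, Mocos, Atp1b1 and Dnajb6. Coq10b, a mitochondrial coenzyme Q-binding protein, had an adjusted p of 0.0521 in the limma fit.

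Among the lists of genes examined, circadian output had the largest share of members with a difference at an unadjusted p under 0.05. The lists were chosen with earlier results of these data known, and the genes of a list are not independent, so the ranking is a description. Of 14 measured circadian output genes, 9 had a negative difference with an unadjusted p under 0.05 and 0 a positive one, and the median difference was -0.41, against 4.95% of all probes with a negative difference at that p and a median over all probes near 0. The 9 were Usp2, Coq10b, Ciart, Dbp, Upp2, Noct, Tsc22d3, Pnpla2 and Tef, of which Usp2 alone passed the adjusted test. Of 12 measured core clock genes, Per1, Per2 and Ciart had negative and Clock and Nr1d1 positive differences at that p. Ciart, a repressor of CLOCK and BMAL1 also counted in the core list, spanned 7.89 to 8.79 (median 8.201) in CI water and 8.16 to 9.51 (8.89) in CI ethanol mice, and 9.42 to 10.7 (10.2) and 9.25 to 10.5 (9.98) in Chronic. Its changes were 0.55 ± 0.14 in CI and -0.23 ± 0.15 in Chronic, and its second probe gave 0.48 ± 0.10 (limma adjusted p = 0.0479) and -0.17 ± 0.14. Per1, a core repressor, spanned 8.00 to 8.89 (8.54) and 8.60 to 9.09 (8.82) in CI and 9.89 to 10.5 (10.4) and 9.61 to 10.6 (10.0) in Chronic, with changes of 0.33 ± 0.10 and -0.26 ± 0.12. For Per2 the changes were 0.33 ± 0.13 in CI and -0.24 ± 0.07 in Chronic.

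The changes behind the difference varied among the output genes. Dbp, a transcription factor that binds D-boxes, had a CI change of 0.36 ± 0.09 and a Chronic change of -0.02 ± 0.06, and Coq10b had 0.59 ± 0.13 and -0.09 ± 0.08. Upp2, a liver uridine phosphorylase, and Noct, a NADP(H) phosphatase with a strong rhythm, had Chronic changes of -0.38 ± 0.12 and -0.56 ± 0.16 and CI changes of 0.35 ± 0.21 and 0.26 ± 0.23. Upp2 had 4 probes, with Chronic changes from -0.57 to -0.38 and CI changes from 0.35 to 0.42. The Upp2 probe ILMN_2462988 fell in Chronic with a limma adjusted p of 0.0148. On the positive side Clock had 0.14 ± 0.06 in Chronic and -0.13 ± 0.08 in CI, and Nr1d1, a repressor of Bmal1, 0.27 ± 0.13 and -0.12 ± 0.08. The other 12 clock and output genes, from Alas1 at -0.57 to Rgs16 at 0.46, had unadjusted limma p-values above 0.05, and among them Per3, Cry2, Nr1d2 and Bhlhe40 had differences between -0.17 and -0.09.

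**Figure D3:**
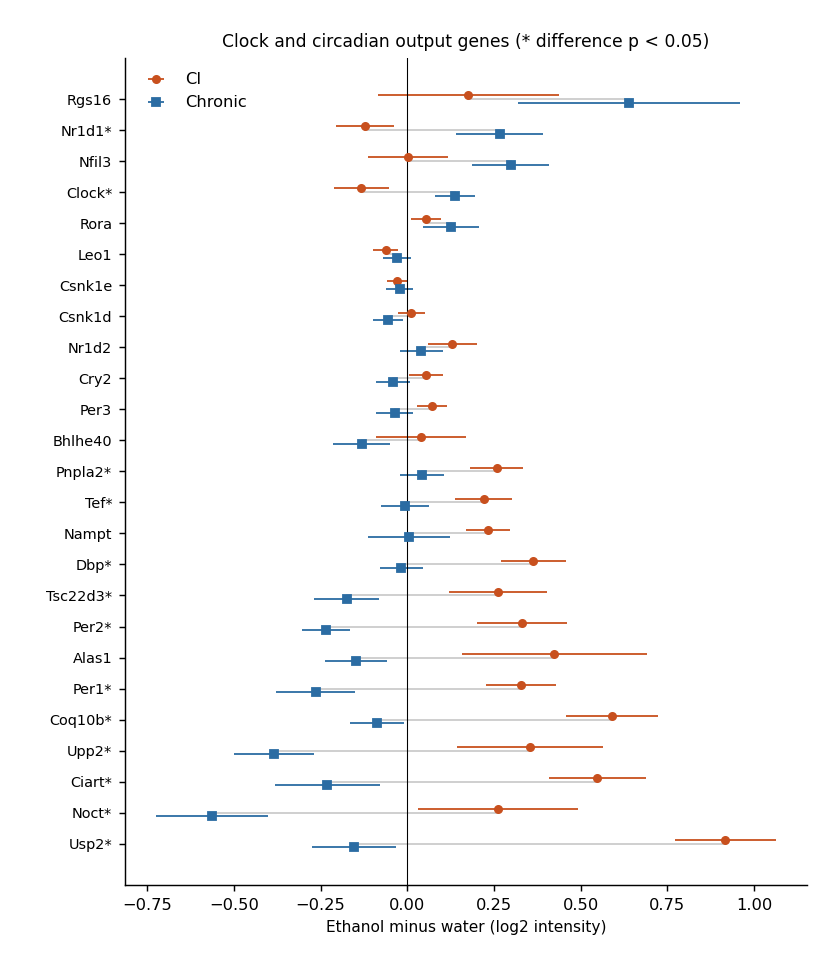
Change with ethanol (log2 intensity, estimate and SE) of the 25 measured core clock and circadian output genes, Chronic as blue squares and CI as orange circles, ordered by the difference, with an asterisk where its unadjusted p was under 0.05. Over all 25 genes the CI estimate lies above 0 in 21 and the Chronic estimate below 0 in 17.

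The water controls of the studies were at different levels for these genes. The Chronic water mean was above the CI water mean by a median of 1.04 over the 25 genes and 0.59 over all 9114 probes, with 2.38 for Usp2, and 13 of the 25 genes (52%) and 13.4% of all probes had a gap over 1. These levels come from sets on different scales and were not tested, and their part in the difference was not tested.

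Promoter windows of 300 bases (250 before and 50 after the annotated start, RefSeq, GRCm38.p6) were read for the clock genes because their differences lie together. They are shown 5′ to 3′ on the gene's strand for a gene with several E-boxes, for the gene with an E-box and a D-box, for Per1 and for Usp2. Capitals mark an E-box (CACGTG) or a D-box (TTATGTAA or TTACGTAA), searched on both strands.
Ciart, chr3:95882179-95882478, minus strand: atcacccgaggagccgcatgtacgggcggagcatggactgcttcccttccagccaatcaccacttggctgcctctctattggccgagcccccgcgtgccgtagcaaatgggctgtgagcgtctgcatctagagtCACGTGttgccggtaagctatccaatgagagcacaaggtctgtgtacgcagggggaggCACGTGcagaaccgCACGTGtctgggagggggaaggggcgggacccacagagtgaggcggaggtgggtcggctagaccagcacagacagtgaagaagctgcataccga
Coq10b, chr1:55052520-55052819, plus strand: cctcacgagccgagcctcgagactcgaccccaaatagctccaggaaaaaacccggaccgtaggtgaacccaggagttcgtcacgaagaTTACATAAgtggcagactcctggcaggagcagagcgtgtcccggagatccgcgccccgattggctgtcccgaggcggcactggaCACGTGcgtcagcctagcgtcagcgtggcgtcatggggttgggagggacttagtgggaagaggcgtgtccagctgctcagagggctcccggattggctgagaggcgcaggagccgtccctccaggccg
Per1, chr11:69098699-69098998, plus strand: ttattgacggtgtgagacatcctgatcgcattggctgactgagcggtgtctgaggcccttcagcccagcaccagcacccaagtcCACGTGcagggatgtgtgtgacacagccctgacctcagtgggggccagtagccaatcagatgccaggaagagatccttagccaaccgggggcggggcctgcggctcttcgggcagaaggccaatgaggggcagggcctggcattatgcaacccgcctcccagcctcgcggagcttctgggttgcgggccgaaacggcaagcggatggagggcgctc
Usp2, chr9:44084670-44084969, plus strand: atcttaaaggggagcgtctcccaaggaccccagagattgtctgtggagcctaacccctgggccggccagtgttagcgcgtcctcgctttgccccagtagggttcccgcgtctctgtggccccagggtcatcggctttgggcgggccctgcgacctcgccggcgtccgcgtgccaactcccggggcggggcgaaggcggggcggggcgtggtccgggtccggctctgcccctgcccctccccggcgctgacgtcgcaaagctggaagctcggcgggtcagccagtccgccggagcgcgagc
Ciart held 3 E-boxes, Coq10b 1 E-box and 1 D-box, this Per1 window 1 E-box, and the Usp2 window held neither of these letters. Of the 25 clock genes 22 had a window, 4 with an E-box in any of their windows and 2 with a D-box. Of all 32851 mouse windows 7.15% held an E-box and 1.06% a D-box. The clock count is per gene, some with several windows, and the share over all is per window, so they are not directly comparable. Among the called genes Khk and Morf4l2 each had a window with 1 E-box. These matches are descriptions of letters in the windows.

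Among the lists examined, ER folding genes had the largest share of members with a positive difference at an unadjusted p under 0.05. Of 21 measured ER stress and folding genes 9 had a positive difference at an unadjusted p under 0.05 and 0 a negative one (4.92% of all probes were positive at that p), and the median difference was 0.17. None passed the adjusted test. In Chronic the list had a median change of 0.12, with 7 members higher with ethanol at that p (6.31% of all probes), and in CI a median of -0.07, with 2 higher (5.23%) and 6 lower (5.24%). Hspa5 is the chaperone BiP that senses unfolded proteins, and its probe was dim here. At the low end the scale was stretched in Chronic relative to CI (quantile slope 1.58). Hspa5 spanned 8.49 to 8.76 (median 8.64) in Chronic water and 8.70 to 9.05 (8.81) in Chronic ethanol mice. In CI it spanned 8.10 to 8.39 (8.23) with water and 8.05 to 8.39 (8.204) with ethanol. All 10 Chronic ethanol mice were above the control mean, and 5 of 10 in CI. Hspa5 rose by 0.20 ± 0.04 in Chronic (limma adjusted p = 0.0238), with a difference of 0.21 ± 0.06. Sel1l, an adaptor of ER-associated degradation, rose by 0.17 ± 0.04 in Chronic (limma adjusted p = 0.0441). Hyou1, Pdia4 and Creld2, which reside in the ER and assist folding, had Chronic changes of 0.15, 0.13 and 0.19 and CI changes of -0.09, -0.18 and -0.18. The Hyou1 probe was dim as well, at 7.98 to 8.22 in CI water mice. Calr and Hsp90b1, the calcium-binding chaperones calreticulin and GRP94, had CI changes of -0.19 and -0.17. Not every member followed, since Dnajb9 and Herpud1, both induced by ER stress, lay above 0 in both studies. The count of 9 became 5 when all 80 liver arrays entered the fit and 4 over probes with no blank cell, where some members were not tested. Among the 9 refits that left no array out, the count stayed similar in 6.

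Sterol genes gave a different picture. All 19 measured genes of cholesterol synthesis and sterol control had a difference above 0, yet only Insig2, Sc5d and Stard4 had an unadjusted p under 0.05 (4.92% of all probes were positive at that p) and none passed the adjusted test. In CI 14 of the 19 were lower with ethanol at an unadjusted p under 0.05, with a median change of -0.37, against 5.24% of all probes. In Chronic 2 were lower and 1 higher, against 5.8% and 6.31% of all probes, with a median of -0.12. None of these changes passed the adjusted test within its study. Sqle, squalene epoxidase, had changes of -0.70 ± 0.23 in CI and -0.10 ± 0.27 in Chronic, and Hmgcs1, which makes the precursor of mevalonate, -0.64 ± 0.19 and -0.16 ± 0.17. The differences of these, 0.60 ± 0.37 and 0.48 ± 0.27, had unadjusted limma p-values of 0.107 and 0.0827. For Dhcr7 and Idi1, enzymes of the same pathway, the CI changes were -0.37 and -0.38 and the Chronic changes -0.37 and -0.32. Insig2, which retains the sterol sensor in the ER, had a Chronic change of 0.39 ± 0.14 and a CI change of -0.26 ± 0.17 (difference 0.65 ± 0.23).

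Among 20 lipid droplet and triglyceride genes 4 had a positive and 2 a negative difference at an unadjusted p under 0.05, against 4.92% and 4.95% of all probes, and the list's median difference was 0.01. Plin2, the coat protein of hepatic lipid droplets, spanned 9.81 to 10.9 (median 10.1) in Chronic water and 10.3 to 11.2 (10.9) in Chronic ethanol mice, against 10.5 to 11.4 (10.9) and 10.4 to 11.3 (10.97) in CI. It rose by 0.59 ± 0.14 in Chronic (limma adjusted p = 0.034) with 10 of 10 mice above the control mean, and had a CI change of -0.09 ± 0.14 (difference 0.69 ± 0.20, limma adjusted p = 0.162). Mttp, which loads triglyceride onto lipoproteins, rose by 0.23 ± 0.06 in Chronic (limma adjusted p = 0.0441) against -0.03 ± 0.06. The droplet coat genes Plin5 and Plin3 had differences of 0.39 ± 0.14 and 0.14 ± 0.06. Dgat2, an enzyme of triglyceride synthesis, and Pnpla2, the lipase ATGL, had differences of -0.18 ± 0.08 and -0.22 ± 0.10, Pnpla2 through a CI change of 0.26 ± 0.08.

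**Figure D4:**
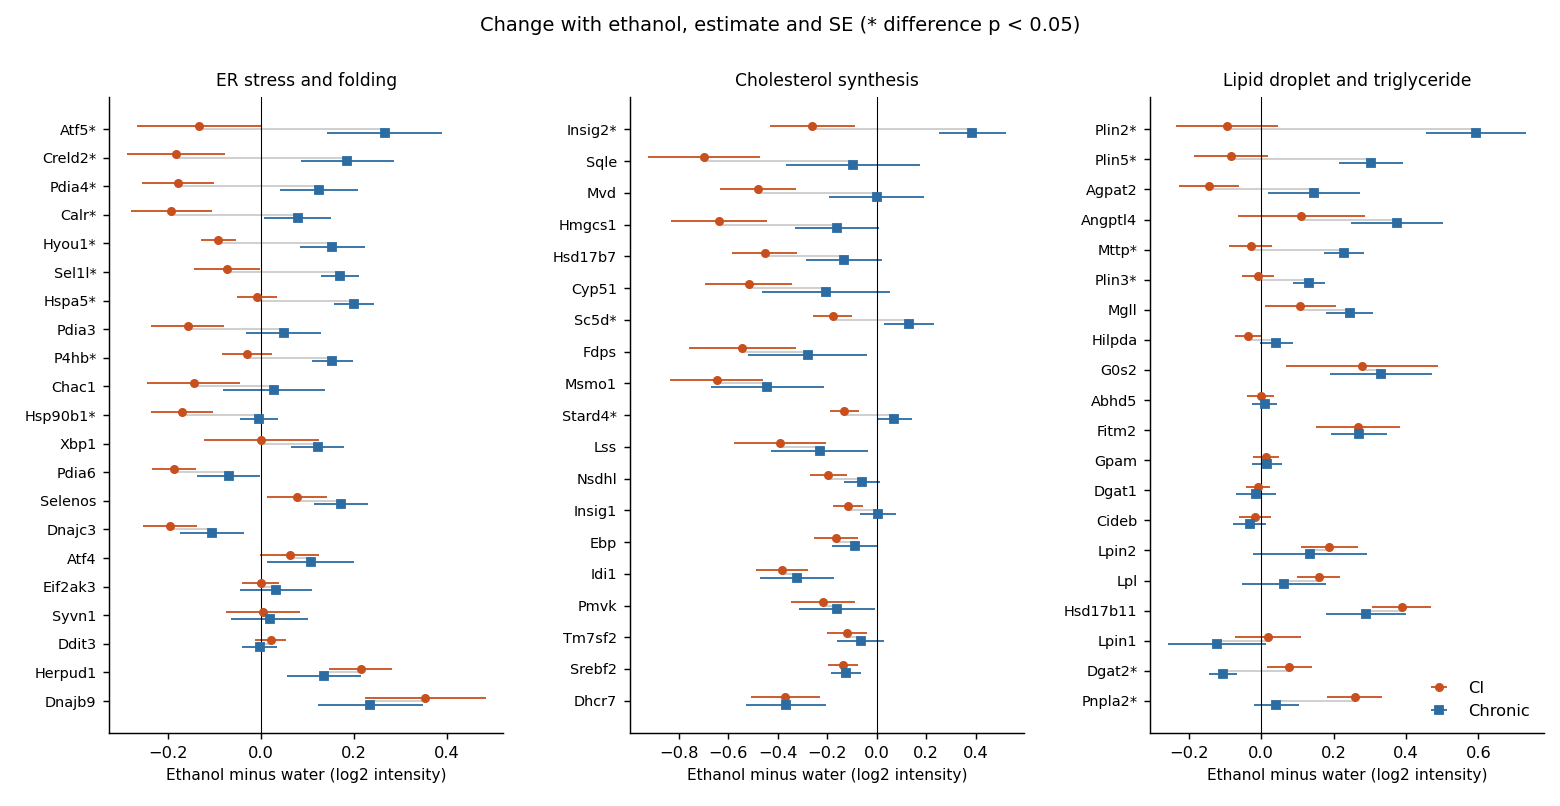
Change with ethanol (log2 intensity, estimate and SE) of the measured genes of 3 lists, Chronic as blue squares and CI as orange circles, ordered by the difference, with an asterisk where its unadjusted p was under 0.05. In the cholesterol panel every Chronic square lies to the right of its CI circle, and the median changes are -0.12 and -0.37.

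In fatty acid oxidation the changes lay on the same side of 0 in both studies for most genes. All 31 measured genes of oxidation and PPAR alpha targets had a Chronic change above 0 and 29 had a CI change above 0, with medians of 0.18 and 0.13, and the median difference was 0.11. At an unadjusted p under 0.05, 23 were higher in Chronic (6.31% of all probes) and 8 in CI (5.23%), while 3 differed between the studies, 2 up and 1 down (9.68% of the list against 10.4% of all genes). These were the acetyl transferase Crat, the ketone enzyme Bdh1 and the peroxisomal thiolase Acaa1b. Crat rose by 0.44 ± 0.11 in Chronic (limma adjusted p = 0.0461) against 0.07 ± 0.08, and Acaa1b had changes of 0.11 ± 0.04 in Chronic and 0.35 ± 0.09 in CI. In Chronic the Acaa1b probe lay at 15.05 to 15.37 with water and 15.29 to 15.44 with ethanol, near the highest value of 15.61. In the refits that left no array out, the limma adjusted p of its difference ran from 0.274 to 0.883.

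Smaller sets of metabolic genes also differed at an unadjusted p under 0.05 without passing the adjusted test, Cyp2a5 excepted, where 4.92% of all probes had a positive and 4.95% a negative difference at that p. In amino acid breakdown 4 of 25 measured genes had negative differences (Prodh, Hpd, Gpt and Bckdha) and 2 positive (Glud1 and Ddc). Prodh, the first enzyme of proline breakdown, spanned 11.6 to 12.1 (median 11.8) in Chronic water and 10.7 to 11.8 (11.3) in Chronic ethanol mice, with 0 of 10 above the control mean, and it fell in Chronic with a change of -0.54 ± 0.12 (limma adjusted p = 0.0238) against 0.16 ± 0.19 in CI. Ddc, which forms dopamine and serotonin, fell in CI with a change of -0.54 ± 0.11 (limma adjusted p = 0.0416), against -0.13 ± 0.14 in Chronic. Of 27 drug-metabolizing P450 genes 5 had negative and 0 positive differences, Cyp2a5 among them, and Cyp1a2 had a Chronic change of -0.43 ± 0.14 against 0.01 ± 0.14. Of 10 measured genes in the cell cycle list 4 had positive differences, namely the helicase subunits Mcm4 and Mcm5 and the tubulins Tubb4b and Tubb5, which serve the cytoskeleton in all cells. Their differences were 0.25, 0.19, 0.43 and 0.31. Serpina12, the adipokine vaspin, and Cyp8b1, which sets the balance of bile acids, had wide differences of 0.92 ± 0.39 and 1.10 ± 0.43 through CI changes of -0.76 ± 0.28 and -0.98 ± 0.35. The fatty acid elongase Elovl5 rose in Chronic by 0.46 ± 0.10 (limma adjusted p = 0.0238) against 0.02 ± 0.09, and Srebf1, the activator of fatty acid synthesis, had changes of -0.34 ± 0.11 and 0.17 ± 0.12. Adh4, an alcohol dehydrogenase, had 0.18 ± 0.07 in Chronic and -0.21 ± 0.09 in CI, and Socs2, a feedback inhibitor of growth hormone signaling, 0.05 ± 0.22 and -0.70 ± 0.19.

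The other lists are given by their counts of positive and negative differences at an unadjusted p under 0.05, beside 10.4% of all genes with either. Cytosolic ribosomal proteins had 6 positive and 1 negative difference of 51, metallothioneins and zinc transporters 2 and 1 of 12, serpin clade A 2 and 0 of 11, bile acid synthesis 2 and 1 of 17, and oxidative phosphorylation subunits 2 and 2 of 67. Interferon and MHC class I genes had 2 and 2 of 38, complement 1 and 2 of 19, acute phase genes 1 and 2 of 22, glutathione and antioxidant enzymes 1 and 2 of 34, and glucose handling 1 and 2 of 17. Fatty acid synthesis, ethanol metabolism, the methionine cycle and the growth hormone axis each had 1 and 1, of 18, 13, 19 and 23 genes. Heat shock chaperones had 1 and 0 of 13, retinol enzymes 0 and 1 of 11, and glucocorticoid targets 0 and 2 of 15, which were Per1 and Tsc22d3. Among marker lists, sinusoidal endothelium had 0 and 2 of 13, stellate cells 0 and 2 of 9, pericentral hepatocyte genes 0 and 2 of 12 (Cyp2a5 and Cyp1a2) and periportal genes 0 and 1 of 13. No measured cholangiocyte, lymphocyte, neutrophil, red cell, or pancreas and adipose marker had an unadjusted p under 0.05, with 4, 6, 1, 4 and 2 measured, and the unadjusted count in these lists was thus 0 in limma. Both measured pancreas markers, the elastases Cela1 and Cela2a, were nevertheless lower with ethanol in both studies. Cela1 had changes of -0.51 ± 0.13 in Chronic (limma adjusted p = 0.0485) and -0.36 ± 0.10 in CI, and Cela2a -0.19 ± 0.04 (limma adjusted p = 0.0326) and -0.10 ± 0.04. Their part in the results was not tested.

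**Figure D5:**
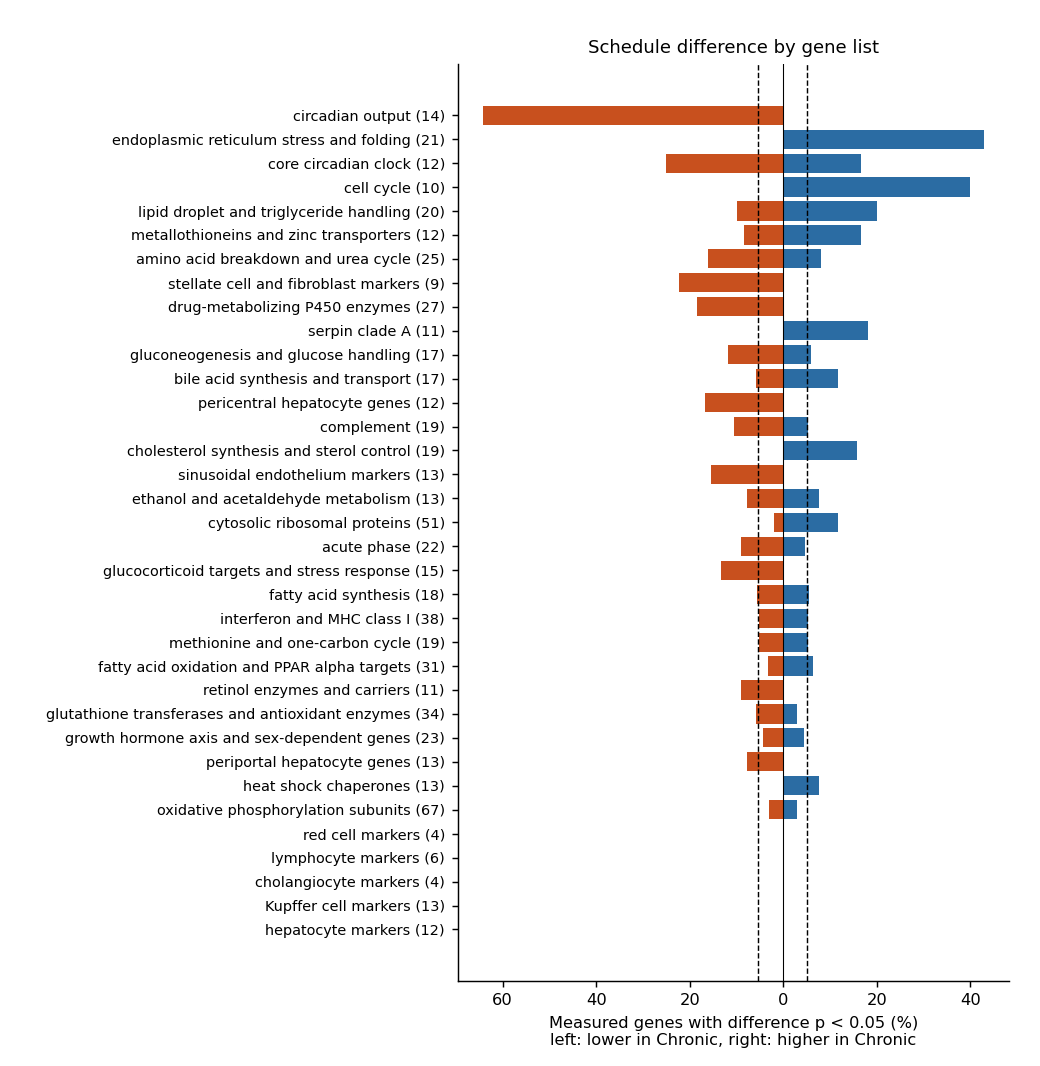
Share of measured genes in each list (number in brackets, lists with at least 4) whose difference had an unadjusted p under 0.05, to the left for negative and to the right for positive differences, with dashed lines at the share over all genes. Circadian output extends farthest to the left, with 9 of 14, and ER stress and folding farthest to the right, with 9 of 21. The lists were chosen with earlier results of these data known.

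The studies were also read against each other through the probes each called on its own. Within Chronic 151 of 10068 probes had a limma adjusted p under 0.05 (1.5%; 12.1% at an unadjusted p), 90 higher and 61 lower with ethanol, and within CI 22 of 9561 (0.23%; 10.5% unadjusted), 14 higher and 8 lower. A blank cell was present in 71 of the 151 (47%) and 12 of the 22 (54.5%), against 21.9% of all probes. These probes were chosen by their change in 1 study, so that their medians there and in the other study are not comparable in size. Of the 90 Chronic rises 68 had a CI change above 0 (50.2% of all probes had one), 13 rose and 3 fell in CI at an unadjusted p under 0.05, and the median CI change was 0.05. Of the 61 Chronic falls 38 had a CI change below 0, 10 fell and 3 rose at that p, and the median CI change was -0.04. In the other direction 8 of the 14 CI rises and 3 of the 8 CI falls had the same sign in Chronic. None of these probes passed the adjusted test in the other study. The adjusted test of the difference was passed by 8 of the 151 and 4 of the 22, against 0.187% of all probes. Choosing probes by a change that is part of the difference favours such passes, so these counts are descriptions only. The strongest Chronic changes belonged to Serpina1e, an antitrypsin with near-identical copies that makes its probe uncertain, Nnmt, Serpina7 and Acot1. Serpina1e had -1.65 in Chronic and -0.97 in CI, and its difference of -0.67 ± 0.62 was about the size of its error. Nnmt, nicotinamide N-methyltransferase, had -0.92 and -0.30, and Acot1, an acyl-CoA thioesterase, 0.85 and 0.49, with unadjusted limma p-values for the difference of 0.0667 and 0.402. Serpina7, the thyroxine-binding globulin, spanned 8.47 to 8.80 in Chronic water and 8.98 to 10.3 in Chronic ethanol mice, ranges that did not overlap, and 8.65 to 9.97 and 8.32 to 9.87 in CI. Its changes were 0.86 ± 0.14 and 0.20 ± 0.19, a difference of 0.66 ± 0.24 (limma adjusted p = 0.30). Denn2b, called in CI with a change of -0.44, had a Chronic change of 0.08 and a difference of 0.52 ± 0.13 with an adjusted p of 0.0789 in limma.

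The same difference was computed in the prefrontal cortex (PFC), taken in the same studies, where 486 of 11148 probes (4.36%) had an unadjusted p under 0.05. Of the 17 liver probes 15 were measured there, 0 had an unadjusted p under 0.05 in limma, and 5 had the sign seen in liver. Usp2 had a PFC difference of -0.20 ± 0.18. Of the 25 clock and output genes 24 were measured in PFC, where 14 had a difference below 0, 3 had an unadjusted p under 0.05 and the median was -0.05. Of the 11 with a negative liver difference at that p, 10 were measured in PFC, with 8 below 0, 1 at an unadjusted p under 0.05 and a median of -0.18. In the liver of the third ethanol study, DID (drinking in the dark, limited daily access to a single ethanol bottle, with mice on a reversed light cycle and livers taken in the dark phase), 463 of 8924 probes (5.19%) had an unadjusted p under 0.05. All 17 were measured and 2 had an unadjusted p under 0.05, Khk with -0.30 and Cyp2a5 with 0.16. The sign was that of the Chronic change in 8 and of the CI change in 11, since 2 of the 17 have the same sign in both.

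Clock genes were set beside the other liver studies as well. Of the 11 with a negative difference at an unadjusted p under 0.05, 10 were measured in DID, 5 had a change above 0 and Dbp alone an unadjusted p under 0.05, at 0.44. In the liver of mice injected with lipopolysaccharide (LPS), a bacterial endotoxin, and collected 1 week after the last of 2 injections, all 11 were above their saline controls and 10 had an unadjusted p under 0.05, when 6.21% of all probes were higher at that p. Usp2 was higher by 0.58 (limma adjusted p = 0.0232), Per1 by 0.48 and Dbp by 0.23. Over all 25 clock and output genes 21 were above their controls with LPS. The median change of the 25 was 0.15 with LPS, 0.22 in CI, 0.02 in DID and -0.04 in Chronic, each against its own controls. The median over the 11 was 0.37 with LPS and 0.02 in DID.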

How the data were processed

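Gene expression was measured in liver RNA on Illumina mouse bead arrays, 1 mouse per array. Per the methods the authors transformed the bead intensities with a variance-stabilizing step on a log2 scale in lumi, quantile normalized them, and removed outlying values by Grubbs' test. Array medians in the deposited values differ between the studies and hardly within them. The deposited log2 values were used as given. A genome build for the array probes was not given in the sources used here, and promoter windows came from RefSeq (GRCm38.p6). A further 159 per-sample columns in 8 tables of values before normalization are numbered without reference to the samples and were not used.

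In limma (3.58.1, R 4.3.3) a model with 4 group means was fitted to the 40 arrays per probe, and the difference between schedules was its interaction contrast, with moderated statistics and Benjamini-Hochberg adjustment over all 9114 probes at 0.05. Changes within a study came from separate fits of 20 arrays, and SE is the moderated standard error. Blank cells were left out, probe by probe. The script was tested on simulated data. Arrays have no read depth, and the 10 arrays per group limit the precision. Genes with several probes were counted in the 37 lists by 1 probe. Probe names came from the platform annotation (13181 of 13983 probes with 1 symbol, 802 with none), 4 updated through RefSeq.

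Genes named are all called probes, the up to 3 members of each list with the smallest p, the 5 probes with the largest called changes within each study, and others chosen after their values were seen. The members and lists were chosen with earlier results of these data known. Alternatives covered blanks, array weights, normalization, a signal filter, the variance model, a replicate block, wider samples and leaving out each array.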

Additional observations from a re-analysis of the deposited data

Results flagged for a closer look

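The difference between the schedules was itself tested, and it passed the adjusted limma test for 17 probes. Positive values were 0.4742 for Ssr3, 0.4464 for Olig1, 0.6736 and 0.6303 for the Clpx probes, 0.3089 for Mrps22, 0.4069 for Pparg, 0.4756 for Slc39a4, 0.4114 for Hsd3b7, 0.5984 for Khk and 0.4225 for Morf4l2. Negative values were -1.071 for Usp2, -0.7606 for ILMN_2791272, -0.7222 for ILMN_1232447, -0.317 for Adarb1, -0.3326 for Pros1, -0.3348 for Cyp2a5 and -0.3316 for Maco1.

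Some single arrays stood apart in their group, measured as the gap to the nearest array divided by the group's range. Chance flags about 1 in 20 groups, and 7 of 408 groups were flagged. The submitters had already removed outlying values, so the flagged share cannot be compared with that rate. The highest Chronic ethanol array was apart for Coq10b (0.4677) and Hspa5 (0.4724), and the lowest for Ndufb10 (0.5805). Among water arrays the highest was apart for Slc30a10 in CI (0.5123) and for Tef in Chronic (0.5192) and CI (0.5049), and the lowest for Cyp1a2 in Chronic (0.5066). The 7 flags fell on 7 different arrays. For Cyp1a2 the array lay at 13.21 and its nearest neighbour at 13.83.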

How the results depend on the processing

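The 17 calls of the difference became 10 over probes with no blank cell, 7 with the 40 arrays quantile normalized together over those probes, 26 without probes below the 0.25 quantile of mean signal and 63 with array weights, and all 17 were among the 26 and the 63. The 7 called probes with a blank cell were not tested in the refits over complete probes, so their absence there is not a lost call. Pparg, Cyp2a5 and Morf4l2 lost their call under joint normalization (adjusted p = 0.0513, 0.0577 and 0.0513). Within Chronic the 151 calls became 43, 272 and 81 over complete probes, with array weights and with a replicate block, and within CI the 22 became 9, 48 and 8. Probes with a blank cell in a study were likewise left out of its refit over complete probes. Leaving out 1 array gave 16 to 31 calls of the difference. It gave 27 without Chronic water replicate 1, 26 without Chronic ethanol replicate 5, 31 without Chronic ethanol replicate 9, 26 without CI water replicate 4, 26 without CI ethanol replicate 3 and 30 without CI ethanol replicate 9. Over these refits the count of circadian output genes was 7 to 10, and of ER genes 7 to 10. No tested alternative turned the sign of a called difference.

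Replicate numbers are shared by ethanol and water mice but did not pair them, with 2 of 10 same-numbered Chronic pairs and 0 of 10 CI pairs correlated above 0.1. With a replicate block the difference had 25 calls, 13 of them among the 17, and Adarb1, Cyp2a5, Maco1 and Khk lost theirs. With all 80 liver arrays in the fit there were 19 calls, 10 of them shared, and Ssr3, Mrps22, Hsd3b7, Cyp2a5, Maco1, Morf4l2 and 1 Clpx probe lost theirs. The cause of these changes was not tested. Dim probes are the least certain, since the low end of the scale was stretched in Chronic relative to CI, with a quantile slope of 1.58 at the low end and 0.966 at the high end.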
